A study of Caenorhabditis elegans with 2 samples.

Results

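*C. elegans* carries a large family of genes, named *flp* and a number, that encode precursors of FMRFamide-like peptides (FLPs), short neuropeptides that end in an amidated arginine and phenylalanine. The members were taken by symbol, after WormBase identifiers were matched to gene names, and 31 of the 46904 genes listed in the data carry such a symbol. Of the 31, 30 had reads, and each of these passed the filter of at least 20 reads in both libraries together. *flp-23* (WBGene00017693, chromosome III, 8650767 to 8652194) had 0 reads in both libraries. A count of 0 allows up to 3 reads, or 0.0647 RPM (reads scaled to the library total) with the *pdxH* mutant and 0.0737 RPM with wild-type *E. coli*.

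The RNA came from whole worms of the N2 genotype. Both groups ate *L. plantarum* to which a trace of *E. coli*, 0.2 µl, was added. In one group this trace was the *pdxH* mutant, which lacks an oxidase that makes pyridoxal 5′-phosphate (PLP), the active form of vitamin B6, and in the other it was the wild-type strain BW25113. The study's methods name synchronized L1 hermaphrodites as the animals of all experiments. For the collection of RNA they describe worms of one common stage without naming it. The study also reports that worms on a trace of the *pdxH* mutant arrested early, while those on the wild-type trace grew. Developmental state and diet therefore cannot be told apart in these libraries. The comparison asked which host pathways depend on bacterial *pdxH* in this diet. Each diet gave 1 library, so no value has a replicate, no test of the diets was possible, and every interval below is a 95% exact interval that covers counting error only. The libraries held 46372171 reads with the *pdxH* mutant and 40707752 with wild-type *E. coli*.

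FLP precursors are cut at basic residues into one or several peptides, trimmed and amidated in dense-core vesicles, and released mainly from neurons. The peptides act through G protein-coupled receptors of the NPR, FRPR and DMSR families and through EGL-6. Single members are known for their part in sleep, locomotion, feeding, fat storage, egg laying and sensory behavior. In a library from whole worms, a larger share of neurons in the tissue and more RNA per neuron cannot be told apart.

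Every *flp* gene with reads was slightly higher in the *pdxH* library. The log2 ratio, computed on deposited values after adding a pseudocount of 1 and with the *pdxH* library on top, was above 0 for 30 of 30 genes, against 52.3% of the 15777 genes with at least 20 reads. The median was 0.31, a 1.24-fold higher level, against a median of 0.01 over all genes tested. The counting interval lay above 0 for 29 of the 30 genes, against 25.5% of all genes tested, and it was below 0 for none of them, against 24% of all. The differences were small. Past a log2 ratio of 0.5, 2 *flp* genes were higher, against 7.93% of all genes tested, and 0 were lower, against 10.7% of all. The 2 of 30 amount to 6.67%, below the share of all genes tested and above the 2.39% of genes with like numbers of reads, and with 2 genes nothing is read from either. Past a log2 ratio of 1, 0 *flp* genes were higher, against 1.45% of all. With a stricter count, in which the 1% tail of the counting distribution had to lie past 0.5, 0 *flp* genes were higher, against 0.805% of all, and 0 were lower, against 5.22% of all. The range of the *flp* ratios, 0.10 to 0.60, held 31.9% of all genes tested.

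The *flp* genes had between 591 and 17055 reads in both libraries together, and more reads give narrower intervals. Among the 8788 genes in that range of reads, 50.5% had a log2 ratio above 0, 30.2% had an interval above 0, 2.39% had a log2 ratio over 0.5, as given above, and 7.01% had one under -0.5. The family as a whole took 94353 reads with the *pdxH* mutant, or 2035 RPM, against 65204 reads or 1602 RPM with wild-type *E. coli*. The log2 ratio of the summed reads was 0.35 (95% interval 0.33 to 0.36), a 1.27-fold higher sum. As the plot of all genes by reads shows, the *flp* genes formed a narrow band just above the line of no change.

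**Figure D1:**
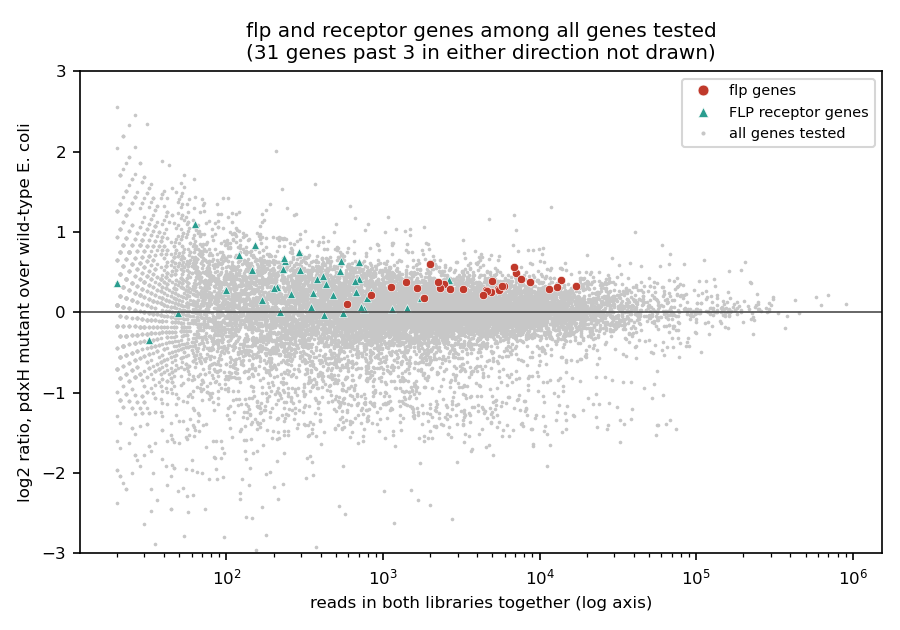
Log2 ratio (*pdxH* mutant over wild-type *E. coli*, vertical axis) against reads in both libraries together (log axis) for each gene with at least 20 reads. The 30 *flp* genes (red circles) sit between 0.10 and 0.60, the receptor genes (green triangles) have fewer reads and spread more widely, and 31 of all genes tested (grey points) lie past 3 in either direction and are not drawn.

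The levels of the *flp* genes spanned a wide range, and both diets gave nearly the same order. Levels are compared between genes as RPKM (reads per kilobase of exon, scaled to the library total), computed from the recovered reads and the exon length in the annotation. The highest level was that of *flp-9* and the lowest that of *flp-25*, a ratio of 31.4 with the *pdxH* mutant and 26.7 with wild-type *E. coli*. The median level was 88.9 RPKM with the *pdxH* mutant and 73.4 RPKM with wild-type *E. coli*, above the median of the 12 pan-neuronal genes at 27.4 RPKM and 25.6 RPKM. The rank of the level was the same in both libraries for 21 of the 30 genes, and the largest shift was 2 ranks. The 5 genes with the most reads held 40.1% of the family's reads in each library. Across the 30 genes, which share both libraries, the log2 ratio had a Spearman correlation of 0.26 with the level and 0.23 with the exon length, and both describe these libraries only.

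**Figure D2:**
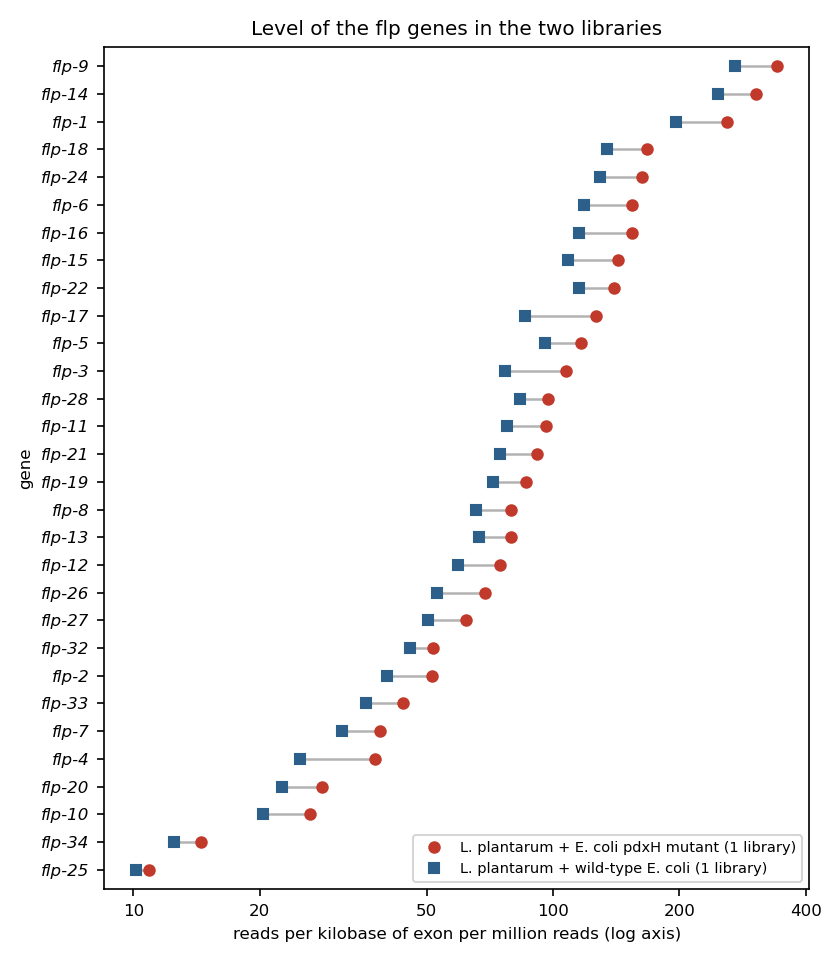
Level of the 30 *flp* genes with reads, in RPKM on a log axis, with the *pdxH* mutant (red circles) and with wild-type *E. coli* (blue squares), 1 library each. Each red circle lies to the right of its blue square, and the order of the genes from *flp-9* (342 and 272) down to *flp-25* (10.9 and 10.2) is nearly the same for both diets.

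The difference between the diets was largest for *flp-4*, *flp-17* and *flp-3*. *flp-4* (WBGene00001447, chromosome II, 10048868 to 10055594) had 1264 reads or 37.6 RPKM with the *pdxH* mutant, against 734 reads or 24.9 RPKM with wild-type *E. coli*. Its log2 ratio was 0.60 (95% interval 0.46 to 0.73), 1.51-fold higher. *flp-4* was among the members of low level, at rank 26 in both libraries.

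*flp-17* encodes a peptide made by the BAG neurons, which sense carbon dioxide, and it inhibits egg laying through the receptor EGL-6. *flp-17* (WBGene00001460, chromosome IV, 17190204 to 17191891) had 4279 reads or 127 RPKM with the *pdxH* mutant, against 2546 reads or 85.9 RPKM with wild-type *E. coli*, a log2 ratio of 0.56 (95% interval 0.49 to 0.63). *flp-10*, which encodes another ligand of EGL-6, had 833 reads (26.4 RPKM) with the *pdxH* mutant, against 565 reads (20.4 RPKM) with wild-type *E. coli*. Its log2 ratio of 0.37 (95% interval 0.22 to 0.53) was smaller than that of *flp-17*, and their intervals overlapped. *ets-5*, which encodes a transcription factor of the BAG neurons, had 43 reads with the *pdxH* mutant and 33 with wild-type *E. coli*, a log2 ratio of 0.19 (95% interval -0.49 to 0.89), so a change of the size of *flp-17* was not detectable at this depth.

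A group of members acts in locomotion, touch and mating, and its 5 genes had a median log2 ratio of 0.33. *flp-3*, known for its part in male mating behavior, had 4360 reads or 108 RPKM with the *pdxH* mutant, against 2728 reads or 76.7 RPKM with wild-type *E. coli*, a log2 ratio of 0.49 (95% interval 0.42 to 0.56). *flp-1*, which is released by the AVK interneurons and shapes body bends, had 8269 reads (260 RPKM) with the *pdxH* mutant, against 5486 reads (196 RPKM) with wild-type *E. coli*. Its log2 ratio was 0.40 (95% interval 0.35 to 0.45), and only *flp-9* and *flp-14* had a higher level in either library. *fax-1*, which encodes a nuclear receptor of the AVK neurons, had 78 reads with the *pdxH* mutant against 61 with wild-type *E. coli*, and its interval held 0.

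*flp-8*, *flp-12* and *flp-20* are needed in adult males to stop repeated turning during mating, and *flp-20* also acts in the touch receptor neurons. *flp-12* had 3518 reads (74.9 RPKM) with the *pdxH* mutant, against 2451 reads (59.4 RPKM) with wild-type *E. coli*, a log2 ratio of 0.33. *flp-20* had 659 reads (28.1 RPKM) with the *pdxH* mutant, against 464 reads (22.6 RPKM) with wild-type *E. coli*, a log2 ratio of 0.32. *flp-8* had 2639 reads (79.6 RPKM) with the *pdxH* mutant, against 1906 reads (65.5 RPKM) with wild-type *E. coli*, a log2 ratio of 0.28. The ratios of these 3 genes lay close together, and the interval of each held the ratios of the other two. *mec-3*, the factor that specifies touch receptor neurons, had 251 reads with the *pdxH* mutant against 159 with wild-type *E. coli*, a log2 ratio of 0.47 (95% interval 0.18 to 0.77).

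The members known for sleep and arousal had a median log2 ratio of 0.32 over 4 genes. *flp-11*, the sleep-inducing peptide gene of the RIS neuron, had 3312 reads (96.4 RPKM) with the *pdxH* mutant, against 2348 reads (77.8 RPKM) with wild-type *E. coli*, a log2 ratio of 0.31 (95% interval 0.23 to 0.39). *aptf-1*, which encodes a factor needed for RIS function, had 75 reads with the *pdxH* mutant against 51 with wild-type *E. coli*, and its interval held 0. Both *flp-13* and *flp-24* act in the sleep that follows cellular stress and are made in the ALA neuron. *flp-24* had 3362 reads (163 RPKM) with the *pdxH* mutant, against 2355 reads (130 RPKM) with wild-type *E. coli*, a log2 ratio of 0.33 (95% interval 0.25 to 0.40). *flp-13* had 2806 reads (79.4 RPKM) with the *pdxH* mutant, against 2067 reads (66.6 RPKM) with wild-type *E. coli*, a log2 ratio of 0.25 (95% interval 0.17 to 0.34). The ALA factor gene *ceh-17* had nearly equal reads, 59 with the *pdxH* mutant and 57 with wild-type *E. coli*, for a log2 ratio of -0.14 (95% interval -0.69 to 0.41). *flp-2*, which promotes arousal, had 1459 reads (51.6 RPKM) with the *pdxH* mutant, against 1001 reads (40.3 RPKM) with wild-type *E. coli*, a log2 ratio of 0.36 (95% interval 0.24 to 0.47).

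The 3 members that act in feeding and fat storage had like ratios, with a median of 0.30. *flp-18*, whose peptides act on foraging and fat storage, had 7576 reads (168 RPKM) with the *pdxH* mutant, against 5337 reads (135 RPKM) with wild-type *E. coli*, a log2 ratio of 0.32 (95% interval 0.27 to 0.37). *flp-7*, a neuronal signal for fat loss in the intestine, had 1355 reads (38.8 RPKM) with the *pdxH* mutant, against 966 reads (31.5 RPKM) with wild-type *E. coli*, a log2 ratio of 0.30 (95% interval 0.18 to 0.42). *flp-5*, whose peptide excites the pharynx, had 3169 reads (116 RPKM) with the *pdxH* mutant, against 2284 reads (95.6 RPKM) with wild-type *E. coli*, a log2 ratio of 0.28 (95% interval 0.21 to 0.36). Their log2 ratios thus ran from 0.28 to 0.32, within the counting error of each gene.

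Among the members known from sensory behavior and learning, *flp-6* had the largest ratio. *flp-6*, a product of the thermosensory AFD neurons among others, had 5214 reads (154 RPKM) with the *pdxH* mutant, against 3513 reads (118 RPKM) with wild-type *E. coli*, a log2 ratio of 0.38 (95% interval 0.32 to 0.44). *flp-21*, a ligand of the aggregation receptor NPR-1, had 1886 reads (91.6 RPKM) with the *pdxH* mutant, against 1352 reads (74.8 RPKM) with wild-type *E. coli*, a log2 ratio of 0.29. *flp-34*, which acts in aversive olfactory learning, was one of the least abundant members, with 480 reads (14.5 RPKM) with the *pdxH* mutant, against 364 reads (12.5 RPKM) with wild-type *E. coli*. Its log2 ratio of 0.21 had an interval that came close to 0 (95% interval 0.01 to 0.41).

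For the other 14 members, *flp-4* and *flp-23* included, no role is given here, and the 13 with reads had a median log2 ratio of 0.30. The most abundant gene of the family, *flp-9*, had 10051 reads (342 RPKM) with the *pdxH* mutant, against 7004 reads (272 RPKM) with wild-type *E. coli*, a log2 ratio of 0.33 (95% interval 0.29 to 0.38). The second, *flp-14*, had 6723 reads (304 RPKM) with the *pdxH* mutant, against 4811 reads (248 RPKM) with wild-type *E. coli*, a log2 ratio of 0.29 (95% interval 0.24 to 0.35). These intervals overlapped. *flp-16* had 4611 reads (154 RPKM) with the *pdxH* mutant, against 3030 reads (115 RPKM) with wild-type *E. coli*, a log2 ratio of 0.42 (95% interval 0.35 to 0.48). *flp-15* had 2969 reads (143 RPKM) with the *pdxH* mutant, against 1985 reads (109 RPKM) with wild-type *E. coli*, a log2 ratio of 0.39. Below *flp-4*, *flp-17* and *flp-3*, *flp-16* had the highest ratio of the family.

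The next members lay near the median of the family. *flp-26* had 1344 reads with the *pdxH* mutant and 909 with wild-type *E. coli*, a log2 ratio of 0.38. *flp-33* had 959 reads with the *pdxH* mutant and 684 with wild-type *E. coli*, a log2 ratio of 0.30. The intervals of both held the median of 0.31. *flp-27* had 1561 reads with the *pdxH* mutant and 1116 with wild-type *E. coli*, a log2 ratio of 0.30. *flp-22* had 3202 reads with the *pdxH* mutant and 2316 with wild-type *E. coli*, a log2 ratio of 0.28. *flp-19*, which had 2677 reads with the *pdxH* mutant and 1962 with wild-type *E. coli*, had a log2 ratio of 0.26.

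The smallest differences were in *flp-25*, *flp-32*, *flp-34* and *flp-28*. *flp-25* (WBGene00010575, chromosome III, 9361528 to 9365380) had 325 reads or 10.9 RPKM with the *pdxH* mutant, against 266 reads or 10.2 RPKM with wild-type *E. coli*. Its log2 ratio was 0.10, and its interval, -0.14 to 0.34, was the only one of the family to hold 0. *flp-25* also had the fewest reads of the 30 genes, and its interval held the median of the family. *flp-32* (WBGene00010982, chromosome X, 15433787 to 15434972) had 1025 reads or 51.9 RPKM with the *pdxH* mutant, against 793 reads or 45.7 RPKM with wild-type *E. coli*, a log2 ratio of 0.18 (95% interval 0.05 to 0.32). *flp-28* had 2466 reads or 97.2 RPKM with the *pdxH* mutant, against 1861 reads or 83.6 RPKM with wild-type *E. coli*, a log2 ratio of 0.22 (95% interval 0.13 to 0.31). The intervals of *flp-25*, *flp-32* and *flp-28*, like those of *flp-13* and *flp-19*, ended below the ratio of the summed reads of the family.

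The spread among the members was partly larger than the counting error. Of the 30 intervals, 20 held the log2 ratio of the summed reads of the family, 5 lay above it and 5 below it. The quartiles of the ratios were 0.28 and 0.37, a width of 0.09, against a width of 0.39 over all genes tested. Many of those genes had fewer reads, which widens the spread, and no width was computed for genes with like numbers of reads. Without *flp-4*, *flp-17* and *flp-3* the median was 0.30.

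**Figure D3:**
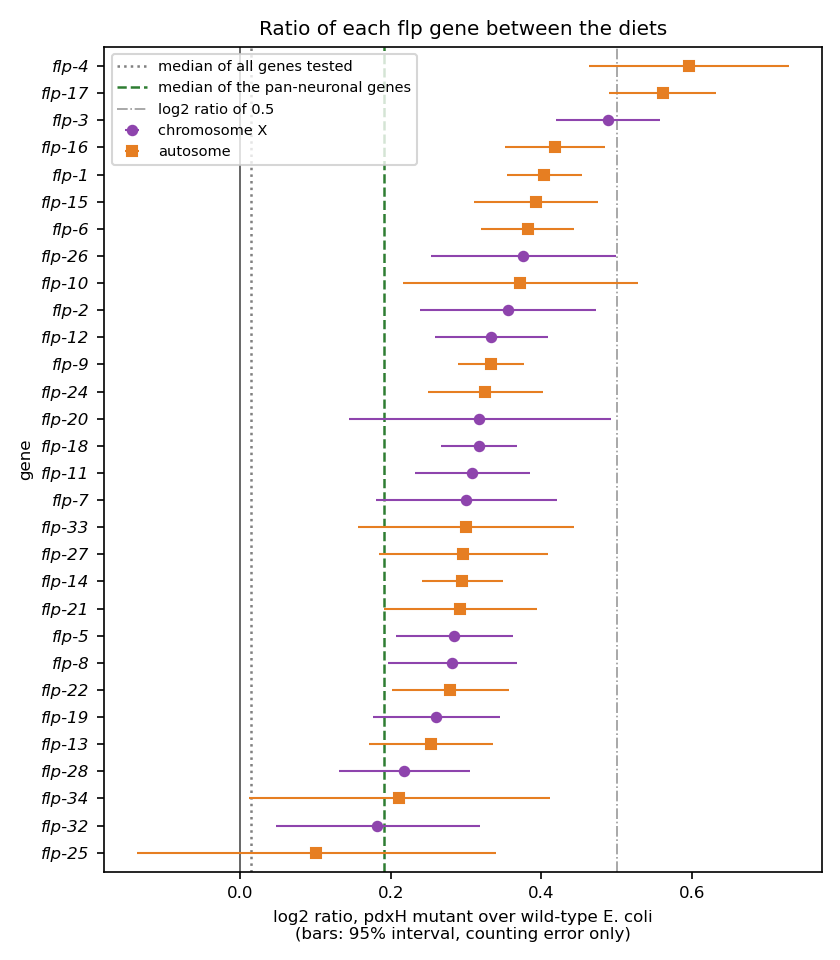
Log2 ratio of each of the 30 *flp* genes, *pdxH* mutant over wild-type *E. coli*, with 95% intervals that cover counting error only; circles are genes on chromosome X and squares genes on autosomes. The ratios run from 0.10 for *flp-25* to 0.60 for *flp-4*, 2 genes lie past 0.5, and the dashed line marks the median of 0.19 of the pan-neuronal genes.

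The family is unevenly placed in the genome, with 13 of its 31 genes on chromosome X, 5 each on chromosomes III and IV, 3 each on II and V, and 2 on I. The 13 genes on chromosome X had a median log2 ratio of 0.31 and the 17 autosomal genes with reads a median of 0.33, against 0.06 over all X chromosome genes tested and 0.01 over all autosomal genes tested. The genes *flp-28*, *flp-3* and *flp-2* lie within 7932 bases of chromosome X (WBcel235, 10087314 to 10095245) on the minus strand, and their log2 ratios of 0.22, 0.49 and 0.36 differed, with no overlap between the intervals of *flp-28* and *flp-3*. W07E11.1 on the opposite strand spans all 3 genes without sharing an exon base with them, and it went the other way, with 5650 reads with the *pdxH* mutant and 6013 with wild-type *E. coli*, a log2 ratio of -0.28. In all, 12 members overlap another gene in the annotation. Without them the median log2 ratio was 0.32 over 18 genes. The strand setting of the counting is not given in the sources used here, so reads of a member and of a gene on the opposite strand cannot be told apart where their exons overlap, which was at most 21 bases.

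The list of genes for peptide processing and dense-core vesicles, which holds enzymes and other proteins, was higher to a like extent. All 8 genes of the list had a log2 ratio above 0, against 52.3% of all genes tested. Their median was 0.37, and they ran from 0.10 for *unc-31*, followed by 0.28 for *pamn-1*, to 0.40. The interval lay above 0 for 8 of 8, against 25.5% of all genes tested. More reads narrow the intervals, and no share was computed for genes with numbers of reads like those of this list. *egl-3*, the proprotein convertase, had 40258 reads with the *pdxH* mutant against 26734 with wild-type *E. coli*, a log2 ratio of 0.40. *egl-21*, the carboxypeptidase that trims the cut peptides, had 29777 reads with the *pdxH* mutant against 20761 with wild-type *E. coli*, a log2 ratio of 0.33. The summed reads had a log2 ratio of 0.35 for the *flp* genes, next to 0.36 for this list (95% interval 0.35 to 0.37).

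The receptors of FLPs were described by the 20 *frpr* genes, the 16 *dmsr* genes and 10 further genes, *egl-6* and 9 *npr* genes. The *frpr* and *dmsr* genes were taken by symbol. A ligand is given below for 11 receptor genes and for none of the others. The receptor genes were expressed at much lower levels than the peptide genes. Over the 41 with at least 20 reads, the median was 3.14 RPKM with the *pdxH* mutant and 2.66 RPKM with wild-type *E. coli*. Of these 41, 37 had a log2 ratio above 0, against 52.3% of all genes tested, and the median of the 41 was 0.30. The interval lay above 0 for 22 of the 41, against 19.6% of the genes in the same range of reads, and below 0 for none. Past 0.5, 12 of the 41 were higher and 0 were lower, which is 29.3% higher against 10.9% of the 10688 genes in that range. Their spread was wider than that of the peptide genes, and 19 of the 41 intervals held 0. In both libraries together the *flp* genes had a median of 4756 reads, against 381 for the receptor genes.

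Among the receptors, *dmsr-12* had the highest log2 ratio, 1.10 (95% interval 0.32 to 2.01), from 45 reads with the *pdxH* mutant and 18 with wild-type *E. coli*. *frpr-14* had 103 reads with the *pdxH* mutant and 50 with wild-type *E. coli*, a log2 ratio of 0.84 (95% interval 0.35 to 1.37). *dmsr-4* had 190 reads with the *pdxH* mutant and 99 with wild-type *E. coli*, a log2 ratio of 0.75 (95% interval 0.39 to 1.12). At the other end were *dmsr-9* at -0.35, *frpr-13* at -0.04 and *frpr-1* at -0.01, each with an interval that held 0.

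Known pairs of a peptide and its receptor were set side by side. The 13 pairs join 11 peptide genes to 11 receptor genes, and in each pair the peptide gene had the higher level per length in both libraries, by 4.22 to 123 times with the *pdxH* mutant and 4.68 to 109 times with wild-type *E. coli*. The log2 ratio was larger for the peptide gene in 7 of the 13 pairs. *npr-3*, which encodes a receptor of FLP-15 peptides, had 452 reads with the *pdxH* mutant and 256 with wild-type *E. coli*, a log2 ratio of 0.63 (95% interval 0.41 to 0.86), next to 0.39 for *flp-15*. *dmsr-1*, through which FLP-13 promotes sleep, had 1577 reads with the *pdxH* mutant and 1049 with wild-type *E. coli*, a log2 ratio of 0.40 (95% interval 0.29 to 0.51), next to 0.25 for *flp-13*. For *flp-1* and *npr-6* the log2 ratios were 0.40 and 0.42.

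*egl-6* had nearly equal values, with 118 reads with the *pdxH* mutant and 103 with wild-type *E. coli*, a log2 ratio of 0.01 (95% interval -0.39 to 0.40). Its interval ended below that of its ligand gene *flp-17*, and overlapped that of its ligand gene *flp-10*. Among the 3 receptors of FLP-18 peptides in the list, the log2 ratio was 0.41 for *npr-4* (95% interval 0.19 to 0.64), 0.15 for *npr-1* (95% interval -0.30 to 0.61) and 0.05 for *npr-5* (95% interval -0.10 to 0.20), next to 0.32 for *flp-18*. Only the interval of *npr-4* was above 0 among these 3, and only that of *npr-5* ended below the interval of *flp-18*. For the other pairs the log2 ratio of the receptor gene was 0.53 for *npr-11* (ligand gene *flp-34*, 95% interval 0.04 to 1.05) and 0.23 for *frpr-18* (*flp-2*, 0.03 to 0.44). It was 0.32 for *frpr-3* (*flp-20*, -0.08 to 0.74) and 0.18 for *npr-22* (*flp-7*, -0.03 to 0.38), and these intervals held 0.

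Markers of neurons and of other tissues were taken from lists of known genes. All 12 pan-neuronal genes, taken as markers of neurons in general, had a log2 ratio above 0, against 52.3% of all genes tested. Their median was 0.19 and their range 0.01 to 0.37. Their summed reads were 50974 with the *pdxH* mutant and 40191 with wild-type *E. coli*, a log2 ratio of 0.15 (95% interval 0.14 to 0.17). The log2 ratio of 29 of the 30 *flp* genes was above this value and the interval of 25 of the 30 was, while 9 of the 30 were above the highest pan-neuronal gene. Against the pan-neuronal median, 2 of the 30 *flp* genes were lower. The shares of all genes tested past these values were not computed, and the upper quartile of all genes tested was 0.21. The 7 factors of neuron identity with at least 20 reads had a median of 0.36, with 6 above 0, against 52.3% of all genes tested. The interval lay above 0 for 2 of these 7, a share near the 25.5% of all genes tested. The eighth, *che-1*, had 7 reads with the *pdxH* mutant and 1 with wild-type *E. coli*.

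Most lists of other tissues had medians below 0. All 7 body wall muscle genes had a log2 ratio below 0, with a median of -0.18, and all 10 germline genes did, with a median of -0.44. Over all genes tested, 7533 of 15777 were below 0. The median was -0.24 for the 9 intestinal genes, -0.27 for the 7 hypodermal genes and -0.25 for the 5 glial genes. It came to 0.06 for the 6 pharyngeal muscle genes and 0.08 for the 3 coelomocyte genes. The members of a list differed. The intestinal ratios ran from -0.79 for *cpr-1* to 0.003 for *ges-1*, and the intervals of *ges-1*, *elt-2* and *elt-7* held 0. The hypodermal ratios ran from -1.18 for *wrt-2* to 0.35 for *tsp-15*, with 2 intervals above 0 and 4 below. The summed level of the germline list was 294 RPM with the *pdxH* mutant against 406 RPM with wild-type *E. coli*, that of the intestinal list 4316 against 5320, and that of the body wall muscle list 8983 against 10372. With the *pdxH* mutant, *asp-1* alone held 111336 of the 200144 reads of the intestinal list. No marker of these lists was at 0 reads in a library, and the part of tissue shares in the *flp* values was not tested.

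**Figure D4:**
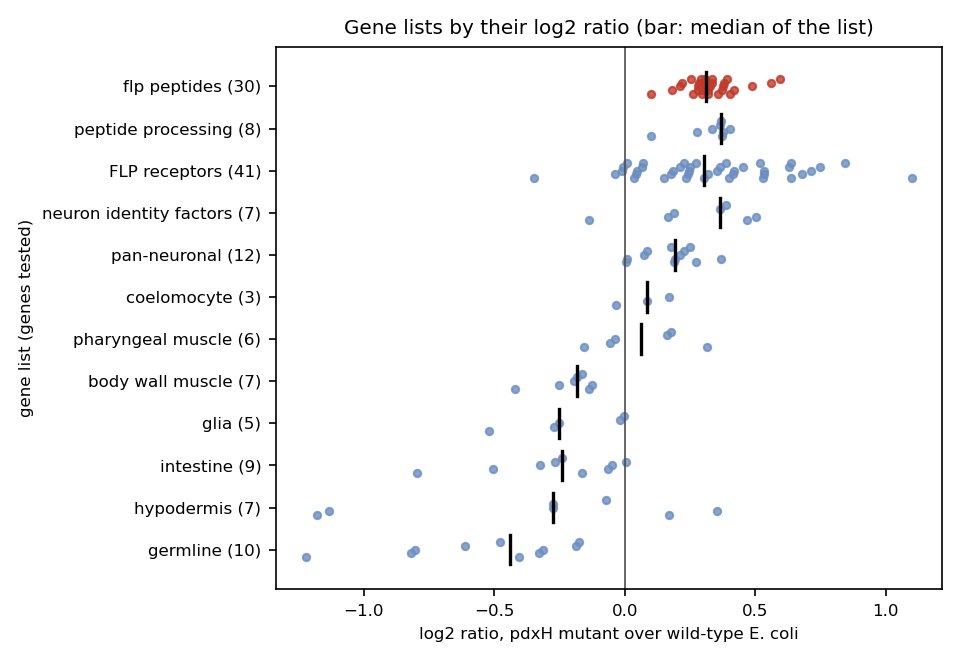
Log2 ratio of each gene with at least 20 reads, *pdxH* mutant over wild-type *E. coli*, by gene list; black bars are the median of each list and the number of genes is in brackets. The median of the *flp* genes (red, 0.31) lies with those of the processing and receptor genes above that of the pan-neuronal genes (0.19). The medians of the muscle, intestine, hypodermis, glia and germline lists lie below the pan-neuronal median, though single hypodermal and pharyngeal muscle genes lie above it.

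The *flp* genes may be set beside the other peptide families. The 68 *nlp* genes tested had a median log2 ratio of 0.28, with 53 above 0. The 28 insulin-like genes (*ins* and *daf-28*) had a median of 0.31, with 22 above 0. The share above 0 was 52.3% over all genes tested. The medians of both families were near that of the *flp* genes. The log2 ratio of the summed reads was 0.35 for the *flp* genes. It was 0.12 for the *nlp* genes (95% interval 0.11 to 0.13) and 0.33 for the insulin-like genes (95% interval 0.30 to 0.37). The interval lay below 0 for 0 of the 30 *flp* genes, against 8 of the 68 *nlp* genes, 2 of the 28 insulin-like genes and 24% of all genes tested. The width between the quartiles was 0.09 for the *flp* genes, against 0.37 in each of the other families. These widths were not tested against each other, and the families differ in their numbers of reads. The *nlp* list was taken by symbol and also holds genes of epidermal antimicrobial peptides, such as *nlp-29* and *nlp-31*. Their part in the *nlp* values was not tested.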

How the data were processed

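Whole-worm RNA gave 1 library per diet. The submitters' processing notes and the study's methods name the ce11 build, STAR 2.5.3a as aligner, HTSeq as counter and Trimmomatic as trimmer, and the file header names GFOLD 1.1.4. The strand setting is not given in the sources used here. The deposited signal values, named RPKM by GFOLD, use a length of 20 bases for each gene and so carry no correction for gene length. Columns of the authors' own comparison (fold change, GFOLD value and error rate) were not used.

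Whole reads were obtained from the deposited signal by division with what 1 read is worth, 1.08 with the *pdxH* mutant and 1.23 with wild-type *E. coli*. Of the values above 0, 97.6% and 97.8% came out within 0.02 of a whole number, and 100% of those up to 20 reads did. The recovered reads added up to the library totals in the header. Gene models and exon lengths came from Ensembl release 115 (WBcel235, the same assembly as ce11), which holds 46817 of the 46904 identifiers, and 44017 were matched to a symbol.

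The log2 ratio used a pseudocount of 1 on the deposited values and genes with at least 20 reads in both libraries together. Intervals are Clopper-Pearson intervals of the share of reads and cover counting error only. Amplified reads are not independent molecules. With 1 library per diet no test was made of the diets. After the data were seen, the exact binomial test (Benjamini-Hochberg adjusted over all genes tested) was added, which compares the libraries only and passed 22.2% of genes as higher and 21.6% as lower at 0.05. Analyses used Python 3.11.15, scipy 1.17.1 and edgeR 4.0.16 (TMM scaling only). Only the intervals and the log2 ratio threshold were tried on simulated reads. Those reads held counting error alone, so they say nothing about amplified reads or differences between worms. The *flp* genes, the gene lists and the pairs were chosen with earlier results of these data known. Values are given for every *flp* gene, for the paired receptors, and for the 3 highest and 3 lowest receptors. The identity factors and the genes that overlap *flp* genes were named after their values were seen. No peptide or promoter sequences were used here.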

Additional observations from a re-analysis of the deposited data

How the results depend on the processing

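No paired analysis was possible because the labels give a single library for either diet, so leaving one out was not possible. The median log2 ratio of the *flp* genes, 0.31, ran from 0.30 to 0.31 with pseudocounts of 0.1 and 5, without a filter, with a minimum of 100 reads, centred on the median of all genes and with TMM scaling, and all 30 genes were above 0 where they were refitted under these scalings and pseudocounts. The log2 ratio of the summed reads was 0.33 after centring and 0.33 with TMM scaling. Scaling by the pan-neuronal reads, which lowers the ratio of every gene by 0.15, gave a median of 0.16, a summed ratio of 0.19, 29 of 30 genes above 0 and 0 genes past 0.5. Scaling by the reads of the processing list, added after the data were seen, gave a median of -0.051, with 9 of 30 genes above 0 and a range of -0.26 to 0.23. The summed log2 ratio was 0.35 for the *flp* genes and 0.36 for that list, so this scaling by construction brings the family close to 0. Instead of 2 genes past 0.5, there were 0 with a 1% tail of the counting distribution past 0.5 and 0 past a log2 ratio of 1. Added afterwards, there were 29 with a counting interval above 0, 28 with the exact binomial test, and 1 among the 18 genes that overlap no other gene, where *flp-17* is left out. The median of the receptor genes was 0.15 when scaled by the pan-neuronal reads and between 0.27 and 0.31 under the others run. Low reads limit the receptor and identity factor genes, whose intervals often span more than the ratio itself.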
